A study of Arabidopsis thaliana with 40 samples.

Results

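The genes for the proteins of the large ribosomal subunit of Arabidopsis thaliana were taken from the annotation texts that accompany the deposited counts. A nuclear gene was a member where its text named a ribosomal protein L followed by a digit, or an R-protein L, and held none of the words 50S, plastid, chloroplast, mitochondri, kinase or methyltransferase. The rule used no measured value and found 184 of 33592 genes. Of these, 92 belong to 34 protein families of the cytosolic ribosome and are called cytosolic below. Another 56 were classed as bacterial-type ribosomal proteins, the kind found in plastids and mitochondria, and are marked as organelle type in the plots. The texts alone do not make this split, and the genes were assigned by a list. The text of emb2394, classed as bacterial-type, reads the same as that of the cytosolic PGY2. A further 25 share a domain with a large-subunit protein but were placed in neither of these classes, and 11 are pseudogenes. The 25 include AT1G15930 and AT2G32060, whose texts also name the small-subunit protein S12e. AT1G15930 is annotated to the cytosolic small ribosomal subunit, so the class is not free of ribosomal proteins. The label of the set therefore holds for the cytosolic genes in the strict sense, and the classes are described apart. The rule passes over some large-subunit genes with other wording in their texts, such as RPL3A and the acidic stalk proteins P1 and P2.

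Whole seedlings aged 9 days spent 3 h without light, either in air or submerged, so that darkness was common to every group and the groups are called dark and submerged. Col-0, the wild type, was compared with K48M, a line that overexpresses SnRK1.1 (KIN10), the catalytic subunit of the energy-sensing kinase SnRK1, with the K48M amino acid change in the Col-0 background. The promoter of the transgene, the number of independent lines and the kinase activity are not given in the labels. Total mRNA and RNA from heavy polysomes (mRNAs carrying many ribosomes) were sequenced, which gave 16 libraries in 8 groups of 2. Each group held 1 library of a set named ST_FR and 1 of a set named LTF_GG, and values of 2 libraries are given below in that order. The series text calls the repeats independent biological ones, and the p-values below measure the spread between these libraries only. A second experiment of 24 samples, which added the lines i4g1-2 and 4A-15 (not described further in the labels used here), is described at the end from the authors' fold changes.

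The large subunit of the cytosolic ribosome joins amino acids into protein. It holds the peptidyl transferase centre, the tunnel through which the new chain leaves, and a flexible stalk that recruits elongation factors. In Arabidopsis nearly every protein of the subunit is encoded by a small family of paralogs, many of whose promoters carry the telo box and site II elements. Making ribosomes is among the most costly tasks of a growing cell, and the synthesis of ribosomal proteins is commonly restrained when oxygen or energy is short.

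Gene reads ran from 3.75 to 6.77 M per library, and ribosomal RNA genes took between 0.87% and 38.12% of them, the most in the Col-0 polysome dark library of the ST_FR set. KIN10 stood between 25.9 and 36.8 CPM (TMM-scaled CPM, the reads of a gene set against those of its library) in the 8 Col-0 libraries and between 232 and 1550 CPM in the 8 K48M libraries. For 2 libraries of the LTF_GG set, both K48M total mRNA, the sample titles and the column headers give opposite conditions. They were left out of the fit, so the K48M total groups held 1 library each, assumed to vary like the other groups, and results with all 16 libraries placed by column header, called the header conditions, are given beside the results they touch. The summed level of 3 root marker genes was 60.8 to 102 CPM in the 7 dark and 6.84 to 20 CPM in the 7 submerged libraries of the fit. In the conflicting pair it was 13.6 CPM in the library titled dark and 113 CPM in the one titled submerged. By header the K48M total response then called 1649 genes, and by title none in any of the 4 responses. Members also differed in level between the library sets, and the set entered each test as a replicate block. Without that block no member passed in any comparison given here. A log2 fold change is given with its standard error, and a gene counts as changed at a Benjamini-Hochberg adjusted p under 0.05 over the 19436 genes that passed the filter on low counts (edgeR quasi-likelihood test).

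Among the 184 members, 176 had at least 1 read and 162 passed the filter, of which 84 were cytosolic, 53 of bacterial type, 23 with a shared domain and 2 pseudogenes. The 22 others had at most 0.931 CPM in any library, such as AT2G40205, AT3G48960 and AT5G19720, with reads in 1 library each. Cytosolic members were short, with a median model length of 830 bases against 1529 bases over all genes tested. They lay on all 5 chromosomes, with 27 on chromosome 1, 18 on chromosome 2, 25 on chromosome 3, 12 on chromosome 4 and 10 on chromosome 5. Reads were counted as the authors assigned them. In 21 of the 88 cytosolic members with reads, under 50% of the reads matched a single transcript model. This share can also fall where a gene has several models, whose reads are summed here, as in RPL10A (39.1% with 2 models). It does not tell such reads from reads shared with close paralogs, so the split between paralogs may be uncertain there.

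Paralogs of 1 family were expressed at very unequal levels. Per kilobase of model and in dark Col-0 total mRNA, RPL10A, which encodes the late-joining protein L10, had a mean of 969 CPM per kb and its paralog RPL10B one of 21.5, a ratio of 45.0. In the family of P0, the protein at the base of the stalk, AT3G09200 stood at 554 CPM per kb and AT2G40010 at 17.7, a ratio of 31.3. In the L18a family AT2G34480 stood at 672 CPM per kb and RPL18AA at 33.5, a ratio of 20.1. RPL18AA overlaps AT1G29965 on the same strand and 18.6% of its reads matched a single model, so this ratio may be uncertain. Other families were balanced. The L15 genes AT4G16720 and AT4G17390 had means of 471 and 467 CPM per kb, and the L4 genes AT5G02870 and AT3G09630, whose protein lines the exit tunnel, of 207 and 187. The L19 gene emb2386 had the highest mean of the cytosolic members on this scale, 1130 CPM per kb, and RPL3B, with 25.5, was among the lowest of those tested.

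**Figure D1:**
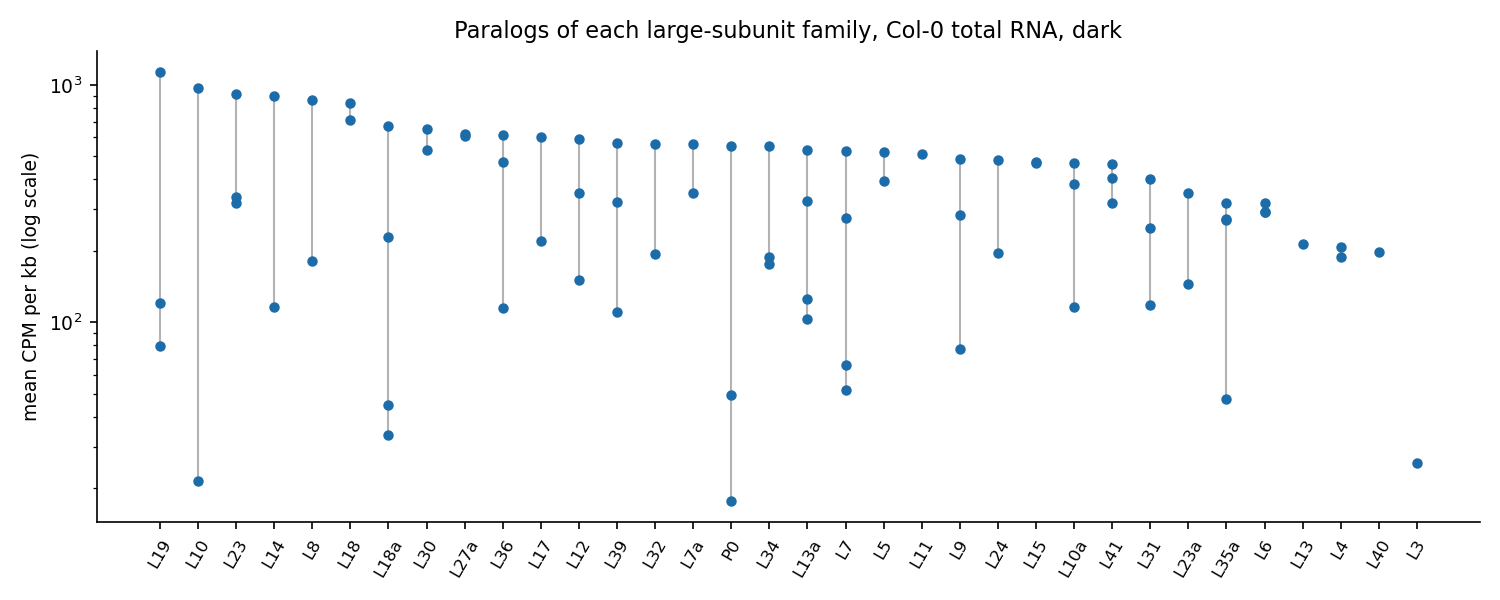
Mean level per kilobase of model (CPM per kb, log scale) of each tested cytosolic member in the 2 dark Col-0 total libraries, by protein family, with a grey line joining paralogs. The families are ordered by their highest gene, from L19 with emb2386 at 1130 CPM per kb to L3 with RPL3B at 25.5, and the widest gap is in L10, where RPL10A stood at 969 and RPL10B at 21.5.

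Promoter motifs were common to most cytosolic members. In windows from 250 bases before to 50 bases after the annotated gene start (RefSeq, assembly TAIR10.1, both strands searched, all 92 cytosolic members matched), a site II element, TGGGCC or TGGGCT, was present in 85.9% of the cytosolic members and in 21.7% of 27443 protein-coding genes. A telo box, AAACCCTA, was present in 55.4% against 6.22%, and both elements together in 48.9% against 2.20%. Telo boxes lay within the first 50 bases after the gene start in 28 members and before the start in 23. In 113 small-subunit genes the shares were 65.5% for site II, 41.6% for the telo box and 32.7% for both. In the bacterial-type members the shares were 50% for site II and 12.5% for the telo box. The G-box CACGTG was rare, with 1.09% of the cytosolic members against 7.68% of all promoters, and TATAAA was present in 64.1% against 52.1%. No motif contains another, and site II matches on the 2 strands can share bases. A match is a description of the sequence, not a bound site.

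The 250 bases before the gene start are printed for 5 members, in the gene's 5′ to 3′ direction. RPL3B (chr1:22723153-22723402, minus strand) and AT3G11250 (chr3:3521079-3521328, plus strand) fell most in total mRNA. EMB2296 (chr2:7836817-7837066, plus strand) and AT3G18740 (chr3:6453053-6453302, plus strand) are abundant members that fell in polysome RNA. RPL23AA (chr2:16473899-16474148, plus strand) was chosen as the cytosolic member with a G-box. Capitals mark matches to the motifs named above on either strand.
RPL3B: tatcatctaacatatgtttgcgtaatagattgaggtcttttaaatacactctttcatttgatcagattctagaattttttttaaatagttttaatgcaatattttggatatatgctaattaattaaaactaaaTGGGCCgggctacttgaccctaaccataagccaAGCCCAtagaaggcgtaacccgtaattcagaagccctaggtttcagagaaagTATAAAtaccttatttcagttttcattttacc
AT3G11250: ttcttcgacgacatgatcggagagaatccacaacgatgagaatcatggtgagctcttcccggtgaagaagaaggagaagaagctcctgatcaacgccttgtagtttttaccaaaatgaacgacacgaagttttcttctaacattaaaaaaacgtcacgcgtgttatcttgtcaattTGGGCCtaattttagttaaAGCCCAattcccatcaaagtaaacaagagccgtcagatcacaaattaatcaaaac
EMB2296: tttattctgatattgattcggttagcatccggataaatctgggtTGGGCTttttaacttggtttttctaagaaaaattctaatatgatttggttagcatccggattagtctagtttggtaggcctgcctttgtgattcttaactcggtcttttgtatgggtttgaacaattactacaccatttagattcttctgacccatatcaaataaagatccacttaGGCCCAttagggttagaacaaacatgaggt
AT3G18740: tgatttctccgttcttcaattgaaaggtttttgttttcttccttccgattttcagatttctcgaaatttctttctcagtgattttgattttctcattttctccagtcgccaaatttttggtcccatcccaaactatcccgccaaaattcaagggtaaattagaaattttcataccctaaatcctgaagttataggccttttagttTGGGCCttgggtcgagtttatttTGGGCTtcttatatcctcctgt
RPL23AA: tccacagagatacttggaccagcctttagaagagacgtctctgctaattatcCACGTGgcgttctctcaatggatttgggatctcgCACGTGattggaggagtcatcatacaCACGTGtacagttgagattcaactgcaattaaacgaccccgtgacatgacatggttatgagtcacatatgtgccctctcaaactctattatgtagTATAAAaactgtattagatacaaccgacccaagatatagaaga
Each of the first 4 holds both site II forms, and RPL3B has a TATAAA as well. RPL23AA holds 3 G-boxes and a TATAAA in this stretch and no site II form. Its polysome values are given below, and few of its reads matched a single model. A part of the motifs in the response was not tested.

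Under submergence the cytosolic members took a smaller part of the polysome RNA and, less clearly, of total mRNA. Their summed level in Col-0 polysome RNA was 45400 and 22600 CPM in dark and 31700 and 14600 CPM in submerged seedlings. In K48M polysome RNA it was 45900 and 25700 CPM in dark and 27900 and 14900 CPM in submerged seedlings. Both sets fell in both genotypes, but the groups overlap, because the dark LTF_GG libraries lie below the submerged ST_FR libraries. In Col-0 total mRNA the sum went from 31700 and 18800 CPM in the dark to 31000 and 14800 CPM under submergence, a change that is small in the ST_FR set. In the K48M total libraries of the ST_FR set it was 29800 CPM in dark and 27500 CPM in submerged seedlings. The LTF_GG library titled dark held 25400 CPM and the one titled submerged 35400 CPM. The bacterial-type members fell in both sets too, from 8810 and 6250 CPM in dark to 6120 and 4430 CPM in submerged Col-0 polysome RNA, with no overlap between these groups.

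**Figure D2:**
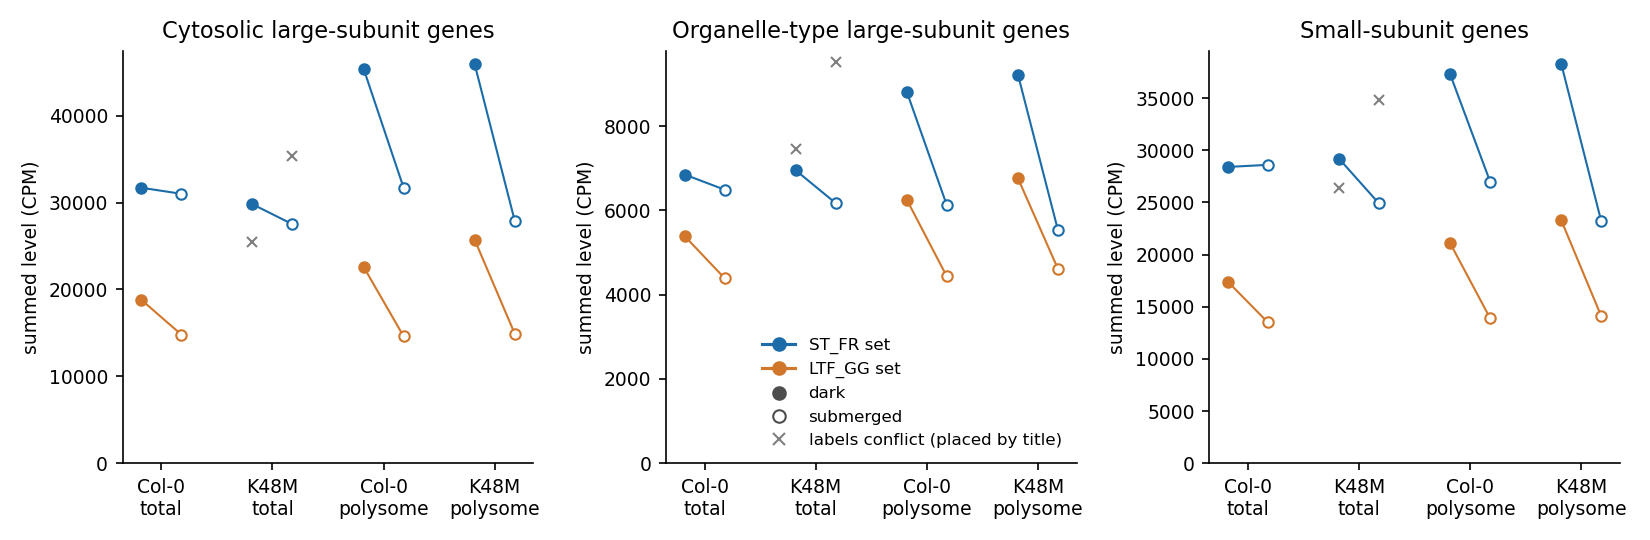
Summed level (CPM, linear axis from 0) of the 92 cytosolic members, the 56 bacterial-type members and the 119 small-subunit genes in each library, with lines joining the dark (filled) and submerged (open) library of 1 set. Every joined polysome pair falls, and in each group of the fit the ST_FR library lies above the LTF_GG library. Crosses are the 2 K48M total libraries with conflicting labels, placed by title.

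In Col-0 total mRNA few members changed. Of the 162 tested, 4 fell and 3 rose, or 4.32% in all, while 12% of all genes tested changed (4.58% fell and 7.44% rose). The median log2 fold change of the cytosolic members was -0.19, with 76 of 84 below 0, against a median of 0.01 over all genes tested. It was -0.10 in the ST_FR set alone and -0.33 in the LTF_GG set alone, and 47 of 84 were lower in both sets, against 33.6% of all genes. With 16 libraries placed by header 1 member fell and 2 rose, and leaving out single libraries gave between 1 and 13 calls.

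RPL3B, the second gene for L3, a protein that reaches to the peptidyl transferase centre, fell most. Its gene lies on chromosome 1 (22720560 to 22723152, minus strand). It stood at 48.3 and 20.7 CPM in dark and at 10.5 and 6.84 CPM in submerged Col-0 total mRNA. Both submerged libraries lay below both dark ones, with a log2 fold change of -1.90 ± 0.27 (n = 2 against 2, edgeR quasi-likelihood, adjusted p = 0.000394). In Col-0 polysome RNA it stood at 78.7 and 31.2 CPM in dark and at 24.6 and 10.4 CPM in submerged seedlings, and in K48M polysome RNA at 75.6 and 44.0 CPM and at 17 and 13.6 CPM. The groups do not overlap in either genotype, with changes of -1.63 ± 0.26 (adjusted p = 0.0011) and -1.94 ± 0.26 (adjusted p = 0.000266). In K48M total mRNA it went from 36.3 to 16.1 CPM in the ST_FR set (-1.16 ± 0.35, adjusted p = 0.0767), and it passed with 16 libraries placed by header (-1.36, adjusted p = 0.0083). The other 3 responses of RPL3B also passed with the header conditions. RPL3A, its paralog outside the rule, gave -0.24 ± 0.27 in total mRNA of Col-0, and in polysome RNA -0.31 ± 0.27 in Col-0 and -0.54 ± 0.27 in K48M, and none of these passed.

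The P0 family, the base of the stalk, was split. AT3G11250 stood at 77.0 and 45.4 CPM in dark and at 44.1 and 16.7 CPM in submerged Col-0 total mRNA. In polysome RNA it stood at 144 and 53.4 CPM against 62.9 and 28.1 CPM in Col-0, and at 119 and 72.5 CPM against 48.5 and 26.5 CPM in K48M. Every dark library was above the submerged library of its set, and in K48M polysome and Col-0 total RNA the groups do not overlap. Col-0 total mRNA changed by -1.11 ± 0.23 (adjusted p = 0.00585), Col-0 polysome RNA by -1.07 ± 0.23 (adjusted p = 0.00812) and K48M polysome RNA by -1.40 ± 0.23 (adjusted p = 0.00129). With 16 libraries placed by header, the K48M polysome call held (adjusted p = 0.0291) and the Col-0 calls were lost (adjusted p = 0.0822 in total and 0.0951 in polysome RNA). AT3G09200, the most abundant P0 gene per length, had 977 and 499 CPM in dark and 1350 and 396 CPM in submerged Col-0 total mRNA. Its submerged libraries lie on both sides of the dark ones, and its changes of 0.19 ± 0.37 there, and of 0.01 ± 0.38 (Col-0) and -0.22 ± 0.38 (K48M) in polysome RNA, did not pass. The difference between the P0 paralogs was not tested.

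The other calls in Col-0 total mRNA were on overlapping, low or non-cytosolic genes. AT1G29965 and RPL18AA, both annotated as L18a proteins, overlap on the same strand, and 18.3% and 18.6% of their reads matched a single model. The first fell (-0.96 ± 0.24, adjusted p = 0.0186) and the second rose (0.74 ± 0.22, adjusted p = 0.0443), so both directions are uncertain. Both calls were lost under the header conditions (adjusted p = 0.0934 and 0.0959). The pseudogene AT1G31355 had 1.32 and 0.92 CPM in dark and 4.28 and 2.64 CPM in submerged seedlings (1.59 ± 0.46, adjusted p = 0.0371). AT5G15260, a gene with an L34e domain, rose from 8.61 and 9.55 CPM to 16.9 and 16.7 CPM (0.89 ± 0.22, adjusted p = 0.0164). The bacterial-type gene AT5G11750 fell from 13.2 and 10.6 CPM to 6.85 and 5.52 CPM (-0.93 ± 0.26, adjusted p = 0.0317). Dark and submerged libraries of these last 3 genes do not overlap, and under the header conditions AT5G11750 lost its call (adjusted p = 0.0658) while the other 2 kept theirs.

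**Figure D3:**
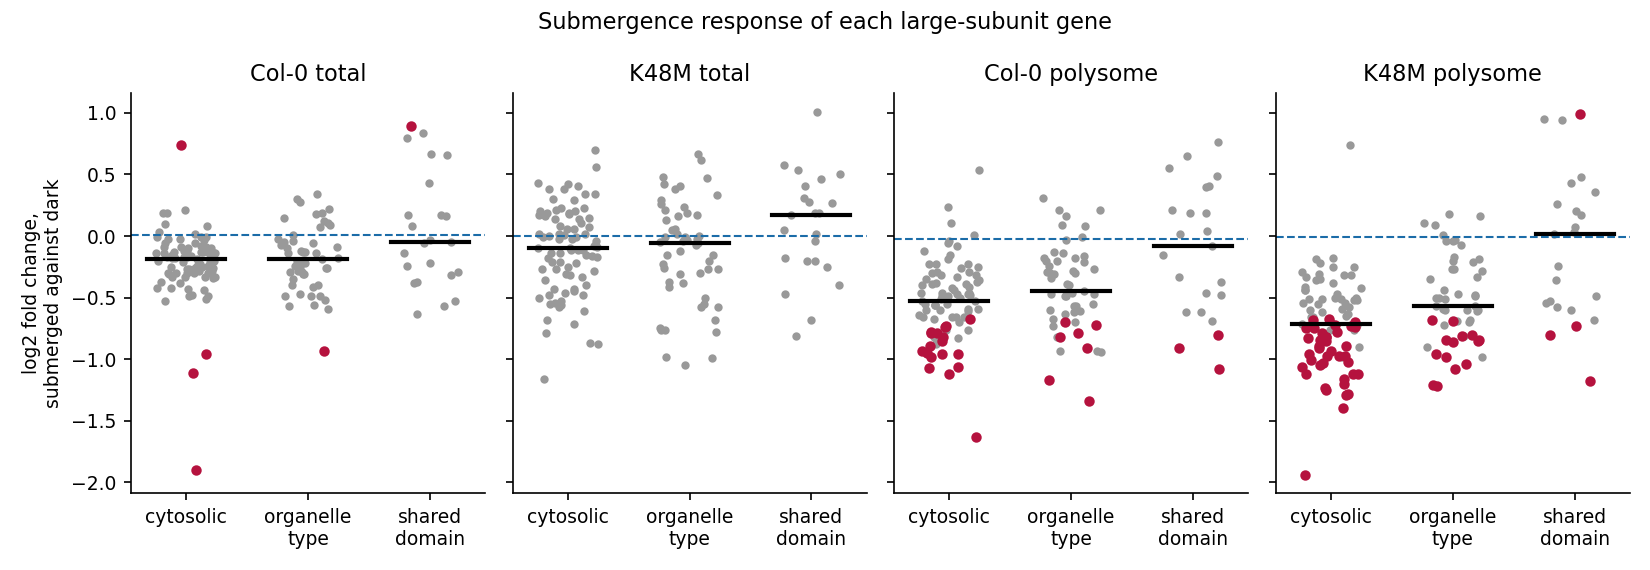
Log2 fold change, submerged against dark, of each tested member in the 4 responses, by class. Grey points did not pass, red points passed at an adjusted p under 0.05, black bars are class medians and the dashed line is the median of all genes tested. The cytosolic median lies at -0.19 (Col-0) and -0.09 (K48M) in total mRNA and at -0.53 and -0.72 in polysome RNA. Pseudogenes are not drawn.

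In K48M total mRNA, with 1 library a group, no member passed the edgeR test (9 at an unadjusted p under 0.05, and 1 by DESeq2), while 5.17% of all genes tested changed (1.83% fell and 3.34% rose). The cytosolic median was -0.09, with 50 of 84 below 0. Placing all 16 libraries by header gave -0.32, with 80 of 84 below 0 and 1 member, RPL3B, called. Placing them by title gave a median of 0.29.

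In Col-0 polysome RNA 28 of 162 members fell and none rose, or 17.3%, while 10.7% of all genes tested changed (4.37% fell and 6.33% rose). Of the 28, 18 were cytosolic, 7 of bacterial type and 3 shared a domain. The cytosolic median was -0.53, with 80 of 84 below 0, against -0.02 over all genes tested. In K48M polysome RNA 56 members fell and 1 rose, or 35.2%, while 13.6% of all genes changed (6.03% fell and 7.57% rose). There 39 cytosolic members, 14 of bacterial type and 3 with a shared domain fell, and the cytosolic median was -0.72, with 83 of 84 below 0. The 18 cytosolic members that fell in Col-0 polysome RNA all fell in K48M polysome RNA as well, and make up 46.2% of those that fell in K48M. The genotypes share no library in these responses, but both come from the same fit, with a common estimate of the spread and the library set. Their calls are therefore not independent, and the same overlap over all genes was not counted. Within the library sets the cytosolic medians were -0.41 and -0.63 in Col-0 and -0.61 and -0.78 in K48M, and 72 and 82 of the 84 genes were lower in both sets, against 33.1% and 35.9% of all genes. These counts depend on the libraries used: with 16 libraries placed by header 3 members fell in Col-0 and 7 in K48M polysome RNA, although the medians were -0.52 and -0.69. The 3 were the cytosolic RPL3B and the bacterial-type AT5G11750 and RPL9 (AT3G44890, not of the cytosolic L9 family). The 7 were these with the cytosolic AT3G11250, AT1G07070 and AT5G60670 and the bacterial-type AT2G42710. Every other polysome call named below was therefore lost under the header conditions. The share of all genes called in these responses under the header conditions is not given here, so the loss is not read as particular to the members.

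By family, in Col-0 polysome RNA 14 of the 34 families had at least 1 gene that fell, and in 5 of them every tested gene fell. In K48M polysome RNA this was so for 25 and 8 families. Among the families in which every tested gene fell, L3, L11 and L13 had only 1 tested gene each, and so had L40 in K48M. In 31 (Col-0) and 33 (K48M) of the families every tested gene had a negative fold change. The counts of families with genes that fell rest on the fit of 14 libraries, and most of these calls were lost under the header conditions. They were not set beside a count over all genes. Model length and level did not order the cytosolic responses: across the 84 genes, which share libraries and are not independent, r with length and with level per kb ran from -0.17 to 0.06 in the polysome responses.

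**Figure D4:**
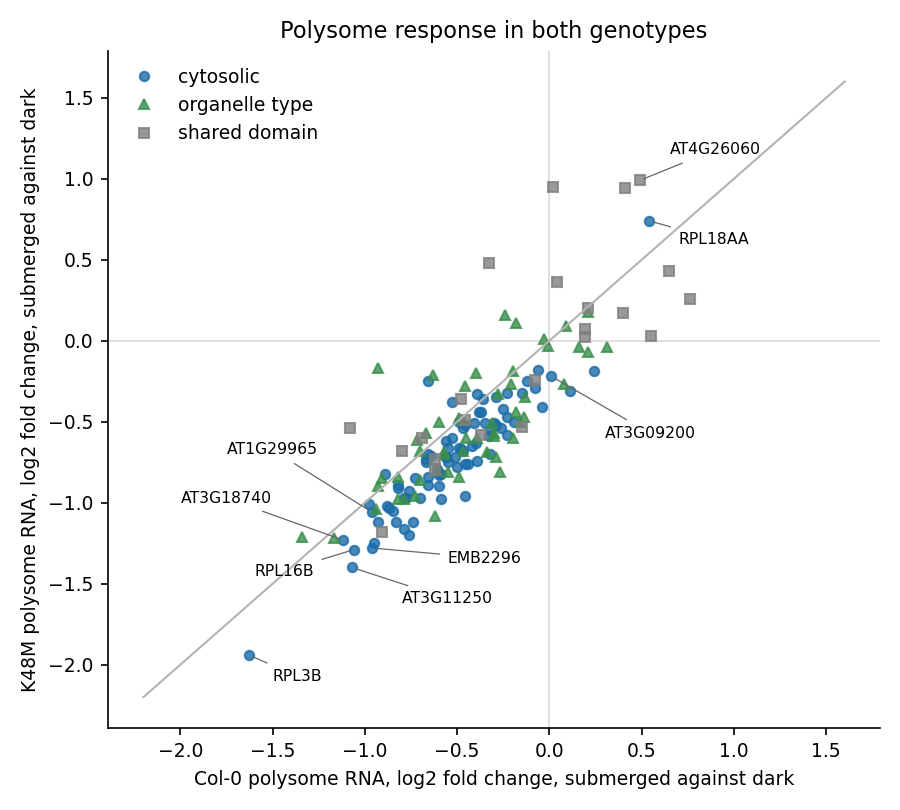
Log2 fold change, submerged against dark, in polysome RNA of Col-0 (x) and K48M (y) for each tested member, by class, with the line of equal change. Of the 84 cytosolic genes, 80 lie below 0 on both axes and 79 lie below the line. RPL3B is lowest in both genotypes, and AT4G26060 and RPL18AA lie above 0 in both.

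Around the peptidyl transferase centre, EMB2296, the most abundant gene for L8, stood at 3820 and 1120 CPM in dark and at 1850 and 625 CPM in submerged Col-0 polysome RNA. In K48M it stood at 3260 and 1350 CPM in dark and at 1210 and 619 CPM in submerged seedlings. Each set fell, and only in K48M do the groups not overlap. The changes were -0.96 ± 0.25 (adjusted p = 0.0244) and -1.28 ± 0.25 (adjusted p = 0.00427), and both calls were lost with the header conditions. In Col-0 total mRNA EMB2296 went from 1100 and 576 CPM to 959 and 431 CPM (-0.31 ± 0.25, adjusted p = 0.479). Its paralog AT4G36130 fell by 0.74 on the log2 scale in Col-0 and by 1.12 in K48M polysome RNA (header conditions, adjusted p = 0.254 and 0.0639). RPL10A fell in K48M polysome RNA (-0.75 ± 0.23, adjusted p = 0.0445, and 0.305 under the header conditions) and gave -0.55 ± 0.23 in Col-0, which did not pass. The L4 genes AT3G09630 and AT5G02870 had values between -0.42 and -0.15 in both genotypes and did not pass.

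The 5S particle, in which L5 and L11 hold the 5S RNA, was uneven. RPL16B, the gene for L11 in the set, stood at 587 and 285 CPM in dark and at 313 and 125 CPM in submerged Col-0 polysome RNA. In K48M it stood at 586 and 335 CPM in dark and at 265 and 129 CPM in submerged seedlings. Its polysome level fell in each set by -1.06 ± 0.32 in Col-0 (adjusted p = 0.0479) and by -1.29 ± 0.32 in K48M (adjusted p = 0.0161), with no overlap between the groups in K48M. Both calls were lost under the header conditions (adjusted p = 0.288 and 0.157). In Col-0 total mRNA the sets went apart, from 543 to 944 CPM in ST_FR and from 271 to 180 CPM in LTF_GG (0.21 ± 0.31, adjusted p = 0.733). The L5 genes ATL5 and RPL5B gave values between -0.50 and -0.37 in polysome RNA, and neither passed. ATL5 and the genes for L10a and L9, PGY1 and PGY2, are known from leaf patterning mutants of Arabidopsis. PGY2 fell in K48M polysome RNA (-0.75 ± 0.20, adjusted p = 0.0249, and 0.251 under the header conditions) and PGY1 gave -0.70 ± 0.29, which did not pass.

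At the tunnel exit, RPL23AA and RPL23AB, for the protein on which factors that receive the new chain dock, fell in both genotypes. RPL23AA stood at 1370 and 595 CPM in dark and at 797 and 329 CPM in submerged Col-0 polysome RNA, and at 1390 and 688 CPM against 761 and 364 CPM in K48M. The dark library was the higher one in each set, and the changes were -0.82 ± 0.21 (adjusted p = 0.0231) and -0.91 ± 0.21 (adjusted p = 0.012). RPL23AB gave -0.79 ± 0.23 and -0.97 ± 0.23 (adjusted p = 0.0445 and 0.0139). Under the header conditions all 4 calls were lost, with adjusted p = 0.216 and 0.152 for RPL23AA and 0.157 and 0.0721 for RPL23AB. Only 10.2% and 4.3% of the reads of these genes matched a single model. This does not tell reads shared between the paralogs from reads shared among a gene's own models, so the split between them may be uncertain. Of the L24 genes, RPL24A fell in K48M polysome RNA (-0.79 ± 0.19, adjusted p = 0.0135, and 0.109 under the header conditions). RPL24B, which supports reinitiation after upstream reading frames, gave -0.55 ± 0.23 in Col-0 and -0.66 ± 0.23 in K48M and did not pass.

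Among the other proteins of the subunit, the L30 gene AT3G18740 stood at 834 and 271 CPM in dark and at 374 and 129 CPM in submerged Col-0 polysome RNA. In K48M it stood at 811 and 308 CPM in dark and at 306 and 152 CPM in submerged seedlings. The change was -1.12 ± 0.25 in Col-0 (adjusted p = 0.0116) and -1.23 ± 0.25 in K48M (adjusted p = 0.00588), and the K48M groups do not overlap. Under the header conditions neither passed (adjusted p = 0.135 and 0.0872). Its total mRNA in Col-0 went from 437 and 290 CPM to 486 and 228 CPM, in opposite directions in the 2 sets (-0.12 ± 0.25, adjusted p = 0.815). The L35a gene AT1G07070 fell by 0.95 in Col-0 and by 1.25 in K48M, and the L13a gene AT5G48760 by 1.20 in K48M, on the log2 scale. Of these calls that of AT1G07070 in K48M held under the header conditions (adjusted p = 0.0184), and the others did not (adjusted p = 0.0821 for AT1G07070 in Col-0 and 0.0655 for AT5G48760). The L40 gene AT2G36170, whose protein is made as a fusion with ubiquitin, fell in K48M (-0.89 ± 0.25, adjusted p = 0.0288, and 0.1 under the header conditions) and gave -0.82 ± 0.25 in Col-0, with an adjusted p of 0.0507.

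Among the bacterial-type members, AT5G47190 stood at 1100 and 364 CPM in dark and at 406 and 210 CPM in submerged Col-0 polysome RNA, and at 1020 and 459 CPM against 385 and 230 CPM in K48M. It fell by -1.17 ± 0.28 (adjusted p = 0.0175) and -1.22 ± 0.28 (adjusted p = 0.0117), and the K48M groups do not overlap. Under the header conditions the adjusted p was 0.0765 and 0.0591. AT5G11750 fell in both as well (-1.34 ± 0.26 and -1.21 ± 0.25, adjusted p = 0.00514 and 0.00642), and these calls held under the header conditions. The median of the bacterial-type members was -0.45 in Col-0 and -0.57 in K48M polysome RNA, and that of the members with a shared domain -0.08 and 0.02. The 1 member that rose in polysome RNA, AT4G26060 with an L18ae domain text, went from 9.13 and 10.6 CPM to 15.8 and 24.4 CPM in K48M (0.99 ± 0.29, adjusted p = 0.0366, and 0.0639 under the header conditions).

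**Figure D5:**
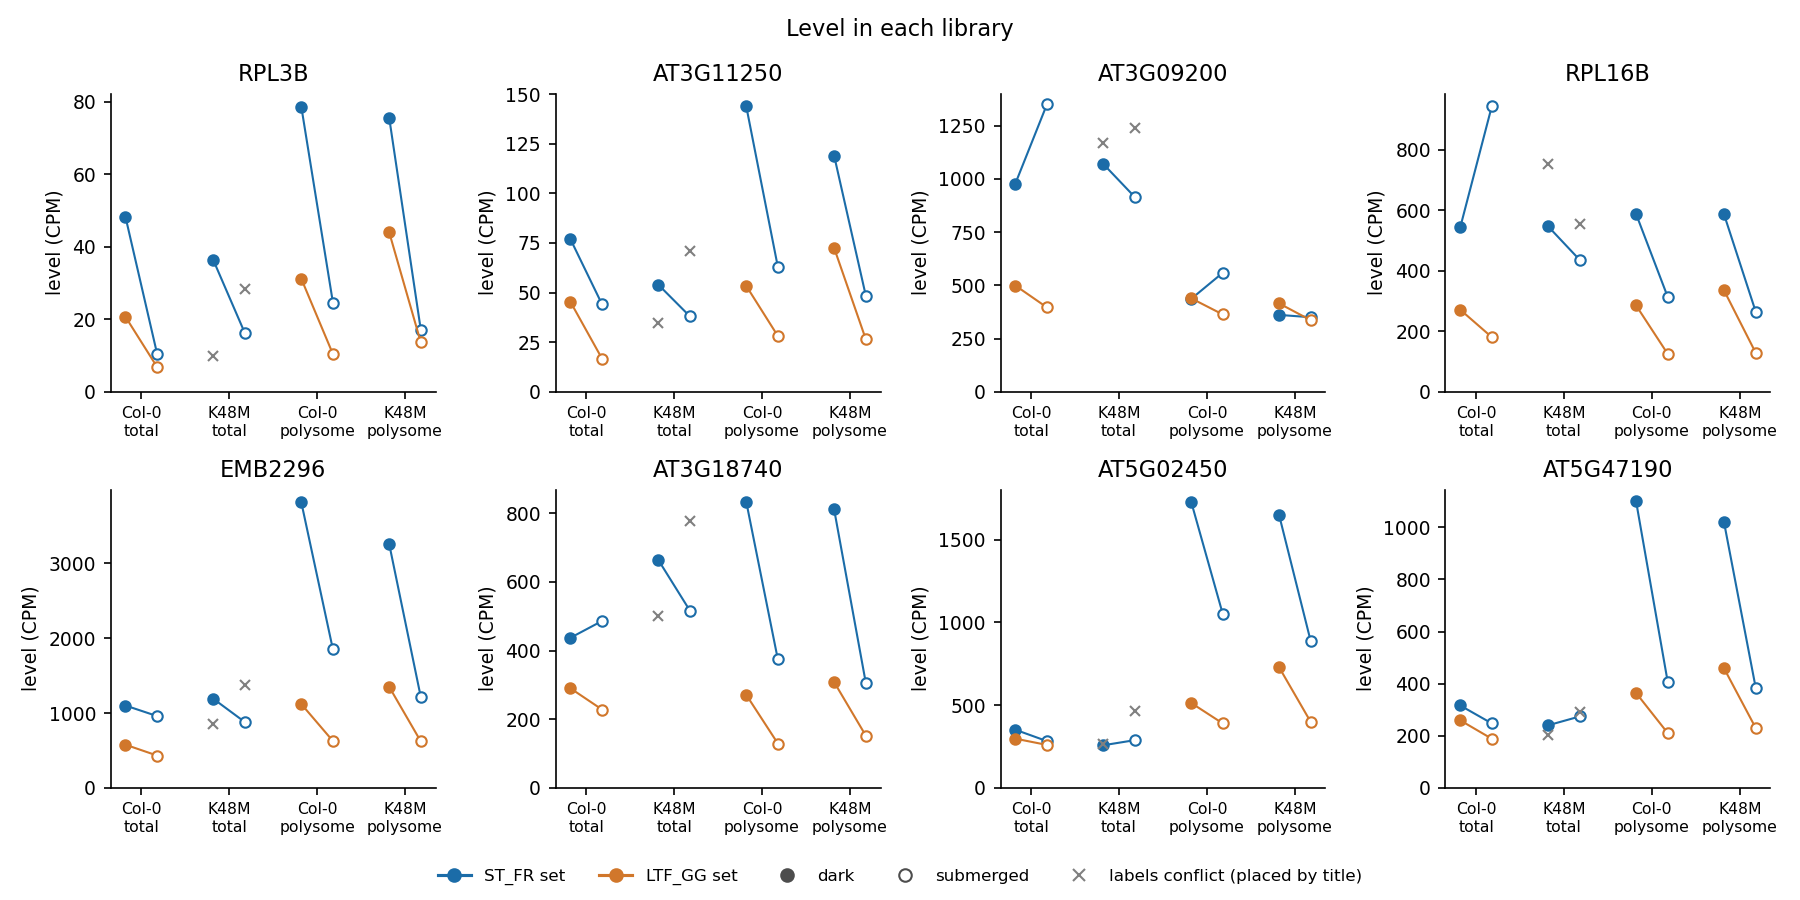
Level (CPM, linear axes from 0) of 8 members in each library, with lines joining the dark (filled) and submerged (open) library of 1 set and crosses for the 2 libraries with conflicting labels, placed by title. RPL3B falls in each joined pair, from 48.3 to 10.5 CPM in the ST_FR set of Col-0 total mRNA, while AT3G09200 and RPL16B rise there and fall in the LTF_GG set.

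Whether K48M altered the response was asked with the difference of the responses. No member passed by edgeR, nor did any of the 19436 genes, and DESeq2 called no member. In polysome RNA the cytosolic median of K48M minus Col-0 was -0.19, with 79 of 84 below 0 and 0 of 162 members at an unadjusted p under 0.05. These genes share libraries and are not independent, and the share of all genes below 0 is not given here. Across the 84 cytosolic genes, single-gene differences ran from -0.50 to 0.41. In total mRNA the median was 0.15 (3 members at an unadjusted p under 0.05), and -0.14 with the header conditions, so its sign turns with the inclusion of the 2 conflicting libraries. K48M against Col-0 within a fraction and condition gave no member either, where the single gene called among all, 0.00515% of those tested, was KIN10. The numbers of members at an unadjusted p under 0.05 were 19 in dark and 9 in submerged total mRNA and 0 in dark and 1 in submerged polysome RNA, and DESeq2 called none.

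The polysome response was compared with the total response in the same way. In Col-0 the cytosolic median of polysome minus total was -0.29, with 72 of 84 below 0, and 6 of 162 members at an unadjusted p under 0.05. In K48M it was -0.62, with 78 of 84 below 0 and 31 members at an unadjusted p under 0.05, and -0.36 with the header conditions. Here too the genes share libraries, and the share of all genes below 0 is not given. No member passed after adjustment by edgeR, no gene did among all tested, and DESeq2 called no member.

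Polysome levels were also set against total levels within a condition. In the ST_FR set the column headers give the polysome libraries another lane code than the total libraries, while all LTF_GG libraries share the same code. Lane and fraction cannot be told apart in the ST_FR set. In dark Col-0, 13 members were higher and 2 lower in polysome RNA, or 9.26%, while 2.38% of all genes differed (1.54% higher and 0.839% lower). Under submergence 2 were higher and 4 lower, while 2.39% of all genes differed (1.11% higher and 1.28% lower). The cytosolic medians were 0.19 in the dark and -0.12 under submergence. In K48M 32 were higher and 2 lower in the dark (5.21% of all genes differed, 2.77% higher and 2.43% lower), and 1 was higher and 4 lower under submergence (2.8% of all genes, 1.23% higher and 1.57% lower), with medians of 0.60 and -0.05. With the header conditions the K48M medians were -0.06 and -0.46, with 1 higher and 6 lower in the dark, so the higher levels in dark K48M were not seen once the pair was placed by header. With those conditions no member passed in dark Col-0.

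AT5G02450, a gene for L36, stood out on polysomes. In dark Col-0 it had 351 and 297 CPM in total mRNA and 1730 and 513 CPM in polysome RNA (1.54 ± 0.35, adjusted p = 0.0425). Both polysome libraries lay above both total ones, and in K48M the dark libraries had 257 CPM in total mRNA (ST_FR) and 1650 and 729 CPM in polysome RNA (2.60 ± 0.48, adjusted p = 0.0182). EMB2296 was higher on polysomes in dark Col-0 by 1.38 ± 0.25 (adjusted p = 0.0241), the L35a gene AT1G41880 by 1.36 ± 0.27 (adjusted p = 0.0302) and RPL24B by 1.05 ± 0.23 (adjusted p = 0.0372). None of these calls, AT5G02450 in K48M included, held under the header conditions (adjusted p between 0.0897 and 0.205). In the other direction, AT3G14595, with an L18ae domain text, had 35.9 and 44.9 CPM in dark total and 8.38 and 16.8 CPM in dark polysome RNA of Col-0. It was lower on polysomes in dark (-1.63 ± 0.32, adjusted p = 0.0292) and submerged Col-0 (-1.77 ± 0.31, adjusted p = 0.0163) and in dark K48M (-1.57 ± 0.38, adjusted p = 0.0367), and the last 2 of these calls held with the header conditions.

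Other genes of the translation machinery are given for comparison. The 104 tested small-subunit genes had medians of -0.21 (Col-0) and -0.22 (K48M) in total mRNA and of -0.55 and -0.70 in polysome RNA, and 18 fell and 1 rose in Col-0 and 42 fell and 2 rose in K48M polysome RNA. Of the 10 tested genes for the stalk proteins P1 and P2, which sit on P0, 4 fell in Col-0 and 7 in K48M polysome RNA, with medians of -0.65 and -1.08. Of 11 elongation factor genes none passed in Col-0, and 4 fell and 1 rose in K48M polysome RNA, with medians of -0.40 and -0.71. The 26 genes of ribosome biogenesis had medians of -0.19 and -0.12 there, with 2 that fell in each genotype, and the 9 genes of the TOR pathway had medians of 0.25 and 0.24, with 1 that rose in K48M and none that fell. The small-subunit genes were not tested against the cytosolic members.

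Some marker genes of tissues moved with submergence too. All 3 root markers fell in total mRNA of Col-0 (median -3.20) and in the polysome RNA of Col-0 (-2.22) and K48M (-3.11), and their summed level went from 68.4 and 102 CPM to 20 and 13 CPM in Col-0 polysome RNA. Of these, MRN1 was near the floor in the ST_FR set, at 0.828 CPM in dark and 0.428 CPM in submerged Col-0 total mRNA. Of the 6 markers of dividing and meristem cells, none fell in Col-0 and 2 fell in K48M polysome RNA, with medians of -0.55 and -0.67 and summed levels between 48.7 and 116 CPM in the main polysome libraries. None of the 3 shoot markers passed, with medians between -0.54 and -0.13. The 2 seed storage genes had at most 0.63 CPM in all. In whole seedlings fewer cells of a type and less RNA per cell cannot be told apart, and the part of these markers in the result was not tested.

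Counts of members that fell were set beside the promoter motifs. In K48M polysome RNA 20 of 44 tested cytosolic members with a telo box fell and 19 of 40 without, with medians of -0.72 and -0.70. For site II the counts were 32 of 72 with and 7 of 12 without, with medians of -0.72 and -0.67. In Col-0 polysome RNA 10 of 44 with and 8 of 40 without a telo box fell. These shares are a description and were not tested.

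Among genes outside the set, the levels most like the summed level of the members across the 14 libraries were those of AT3G22230 (r = 0.993), a gene for L27 whose text reads L27e, of AT5G47700 (r = 0.986), an acidic stalk protein, and of AT3G15357 (r = 0.984), a gene of unknown function. The libraries share sets and scaling, and the values are a description.

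For the second experiment the authors' deposited table gives log2 fold changes of submergence against control without errors, for 56 of the cytosolic members in 57 rows. In polysome RNA the median of the authors' deposited values was -1.21 in i4g1-2 and -1.40 in 4A-15, with all 57 rows negative in both lines. The median of all 8391 rows of the authors' deposited table was -0.94 and -1.01 there, so the members lay 0.27 and 0.39 below it. For Col-0 and K48M polysome RNA the authors' deposited table gives medians of -0.67 and -1.96 against -0.29 and -1.51 over all rows, so its polysome columns are centred differently from the fits above and are read against their own medians only. In total mRNA the authors' deposited medians were -0.08 in i4g1-2 and -0.02 in 4A-15, against -0.08 and -0.06 over all rows. RPL3B was again low: the authors' deposited table lists it at -1.19 in i4g1-2 and -1.11 in 4A-15 total mRNA, and at -2.19 and -2.35 in polysome RNA. AT3G11250 is listed in the authors' deposited table at -0.36 and -0.52 in total mRNA and at -1.39 and -1.72 in polysome RNA of these lines. The polysome values of both genes stand beside the authors' deposited medians of -0.94 and -1.01 over all rows and of -1.21 and -1.40 for the cytosolic members.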

How the data were processed

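The authors deposited whole-number counts of reads per transcript model for the 16 libraries of the first experiment, counted after paired trimming, per the file headers. The submitters' processing notes name TAIR10 as the build, and the aligner is not given in the sources used here. Counts of 41660 models were summed to 33592 genes, and 11 rows with removed identifiers (at most 0.0084% of a library's reads) were left out. The log2 fold changes of the second experiment, and its score of translational status, are the authors' deposited values, for which no error is known. Tests came from 1 quasi-likelihood model of 14 libraries (edgeR 4.0.16, R 4.3.3, TMM scaling) holding the 8 groups plus the library set as a block (5 residual degrees of freedom, biological coefficient of variation 18.8%), after filterByExpr. TMM scaling removes a shift that most genes share. The set number pairs the libraries: the deviations of same-set libraries from their group means correlated in all 15 pairs of groups (r between 0.32 and 0.62 over 19436 genes). The K48M total pair was left out because its labels conflict.

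Named genes were, in each submergence response, the 6 called members with the largest change and the 2 with the highest fold change, up to 3 called members in each other comparison, members with documented roles, the 3 families with the widest ratio between paralogs, and the 3 highest and 3 lowest members detected. Other members named were chosen after their values were seen. The members and lists were chosen with earlier results of these data known. Alternatives were DESeq2 1.42.0, its size factors, no low-count filter, unique reads, removal of ribosomal RNA and organelle genes, no replicate block, all 16 libraries by header or by title, and leaving out each library.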

Additional observations from a re-analysis of the deposited data

How the results depend on the processing

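Without the replicate block, 0 members were called in each response and in each comparison of polysome with total RNA, and the block changed no call in the comparisons of genotypes or of responses. With 16 libraries placed by header, the members called numbered 3 (Col-0) and 1 (K48M) in the total responses and 3 and 7 in the polysome responses, and 0, 1 and 7 in polysome against total for Col-0 dark, Col-0 submerged and K48M dark. Placed by title they numbered 0 in the Col-0 total and both polysome responses, 0 and 0 in polysome against total for Col-0 dark and submerged, and 2 and 2 for K48M dark and submerged. DESeq2 called 3 in Col-0 total and 1 in K48M total responses, and 35, 19 and 8 in polysome against total for Col-0 dark, Col-0 submerged and K48M submerged. Without the low-count filter Col-0 dark and submerged gave 23 and 14 there, and with ribosomal RNA and organelle genes removed Col-0 dark gave 25. Unique reads gave 18 in the Col-0 polysome response and 11 and 11 in polysome against total for Col-0 and K48M under submergence. The one named call that changed sign was RPL23AB in dark K48M polysome against total RNA, -0.06 with unique reads, where few reads of the gene are left. The cause of the other changes was not tested. Counts over all genes are not set beside the member counts of this section, so gains and losses are not read as particular to the members.

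Leaving out single libraries gave 1 to 13 calls (Col-0) and 0 to 3 (K48M) in the total responses, and 1 to 55 and 3 to 91 in the polysome responses. In polysome against total the ranges were 0 to 41 and 0 to 46 for Col-0 dark and submerged, and 0 to 55 and 0 to 27 for K48M. The Col-0 polysome response kept 5 and 11 calls without its dark ST_FR or LTF_GG library, 1 without either submerged one, 14 without either K48M polysome dark library and 17 and 18 without the submerged ones, and had 55 and 54 without the Col-0 total submerged libraries. The Col-0 total response had 2 and 1 calls without its dark libraries, 10 and 13 without its submerged ones, and 9 without either Col-0 polysome dark library. The K48M polysome response had 9 and 5 calls without its dark libraries, 3 and 12 without its submerged ones, and 91 and 89 without the Col-0 total submerged ones. The cytosolic medians were steadier, from -0.27 to -0.14 in total mRNA of Col-0, and in polysome RNA from -0.63 to -0.41 (Col-0) and from -0.76 to -0.61 (K48M). With 2 libraries a group and gene reads of 3.75 to 6.77 M, changes of members under about 10 CPM are measured poorly.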
